A study of Mus musculus with 6 samples.

Results

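Enzymes that digest, build and modify sphingolipids were followed in epithelial cells isolated from the mouse small intestine at E18.5 (a late embryonic day, just before birth). The 10 genes comprised a sphingomyelinase (Enpp7), a pair of ceramidases (Asah1, Asah2), 4 ceramide synthases (Cers2, Cers4, Cers5, Cers6), the fatty acid 2-hydroxylase Fa2h and a pair of head group transferases (Ugt8a, Sgms2). They were picked by name out of 19938 genes measured, with the difference between the groups on these same arrays already known, so their own differences are given as a description and not as a test. RNA was hybridised to 6 Affymetrix Mouse Gene 1.0 arrays, 3 for the Gata4Gata6 double conditional knockout (cKO) and 3 for the control, one RNA sample to an array. All 6 samples were epithelial cells from small intestine of the same stage. The labels name neither the genotype of the control embryos, nor the Cre driver, nor the excised exons of Gata4 and Gata6. They also do not say whether arrays of one group came from different embryos, so an unknown part of the spread within a group may be technical. Xist set control 3 apart from the other arrays in sex, as given below.

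Sphingolipids are built on ceramide, a sphingoid base joined to a fatty acid, to which a phosphocholine or sugar head group is added. In the gut lumen, sphingomyelin from milk and bile is cut to ceramide by the alkaline sphingomyelinase encoded by Enpp7, and the ceramide is cut to sphingosine and fatty acid by the neutral ceramidase encoded by Asah2, both carried on the enterocyte brush border. Inside the cell, ceramide synthases choose the length of the fatty acid, Fa2h places a hydroxyl group on it, and head group transferases turn ceramide into galactosylceramide or sphingomyelin of the cell membrane. The products of Gata4 and Gata6 bind GATA motifs in DNA and control genes of the gut endoderm.

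The levels are the deposited values, read here as log2 of signal intensity, and a change is the mean of the cKO arrays minus the mean of the control arrays. Each gene was measured by 1 probe set, and levels of different probe sets cannot be set against each other. The targeted genes did not show a loss of signal. Gata4 read 11.34, 11.39 and 11.51 on the arrays labelled cKO, against 10.95, 10.93 and 10.96 on the control arrays. Gata6 read 12.72, 12.69 and 12.72 on the arrays labelled cKO, against 12.23, 12.28 and 12.27 on the control arrays. Every direction below therefore rests on the labels, and probes outside the deleted parts would also be counted. The 11 epithelial markers averaged 12.1 to 12.2 on the arrays labelled cKO and 12.0 on each control array. Of these, 9 had a change above 0, and 2 (Vil1 and Cdh17) had a change below 0. Under limma 3 passed as higher (Epcam, Krt8 and Krt19; 27.3%, where 5.52% of all genes did) and 0 as lower. Markers of other cells differed between arrays, most of all on cKO 2. The hepatocyte list (9 of 10 markers measured) averaged 8.80, 12.99 and 8.87 on cKO arrays 1, 2 and 3, against 10.17, 8.70 and 11.50 on control arrays 1, 2 and 3. The erythroid list (5 of 10 measured) averaged 7.37, 11.35 and 7.43 on cKO arrays 1, 2 and 3, against 9.22, 7.60 and 9.26 on control arrays 1, 2 and 3. Control arrays 1 and 3 were thus both raised in these lists, and Alb, the albumin gene, read 12.04 on control 1. Immune and endothelial lists were highest on cKO 2 as well, at 9.28 and 8.44. The mesenchymal and smooth muscle list (10 of 10 measured) averaged 9.13, 8.87 and 8.16 on cKO arrays 1, 2 and 3, against 8.18, 7.81 and 7.99 on control arrays 1, 2 and 3. It was thus higher on cKO 1 and cKO 2 than on every control array, with cKO 3 just below control 1. Of its 10 markers 9 had a change above 0 and 6 were higher without overlap (14.3% of all genes were), with a median change of 0.67. Under limma 0 of them passed and 7 had an unadjusted p under 0.05, as 5294 of all 19938 genes had. Without cKO 3 there were 4 that passed as higher, where 722 of all genes did. The part of this list in the differences below was not tested. Control 3 also differed in sex, with Xist at 6.18 there and at 11.74 to 12.42 on the other 5 arrays. The main results are therefore also given without control 3 and cKO 2, a fit that keeps control 1.

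**Figure D1:**
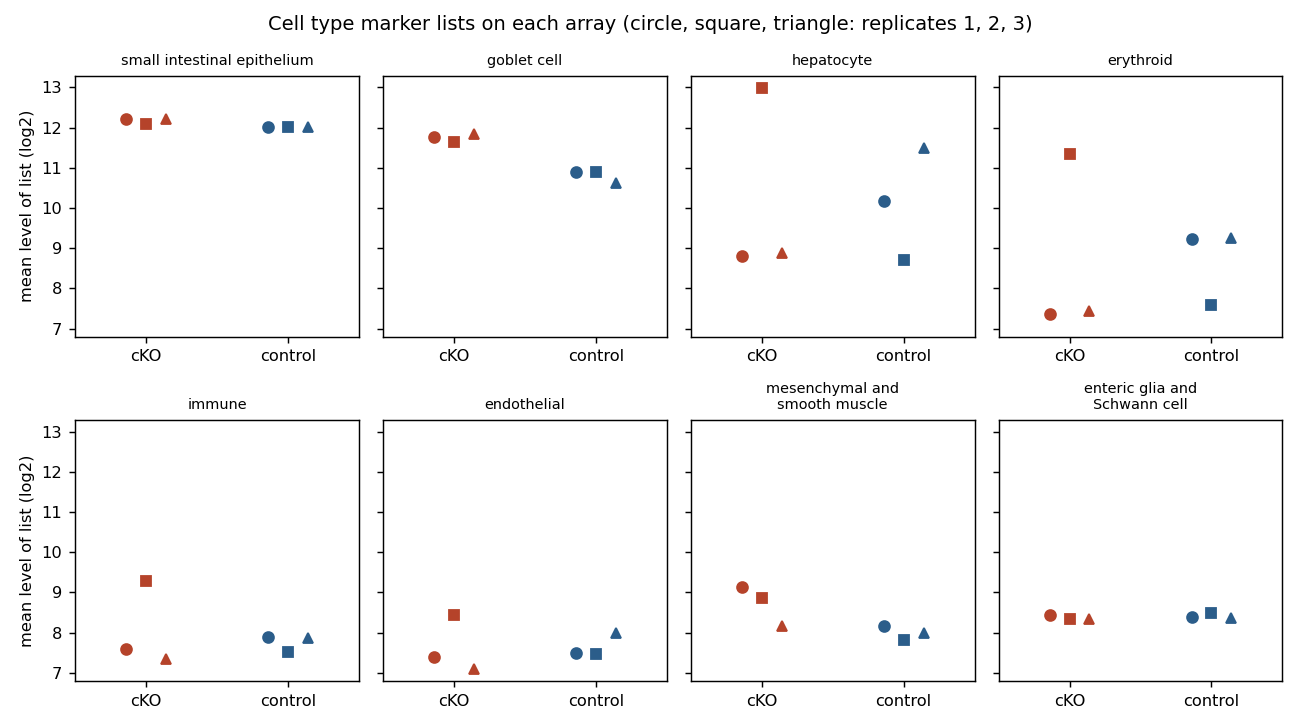
Mean log2 level of 8 cell type marker lists on each array, with cKO arrays in red and control arrays in blue, and circle, square and triangle for replicates 1, 2 and 3. The hepatocyte and erythroid lists are highest on cKO 2, the goblet list lies at 11.64 to 11.83 on cKO arrays and at 10.63 to 10.89 on control arrays, and the glial list overlaps between the groups.

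Of the 10 genes, 3 differed by at least 2-fold on the arrays labelled cKO, where 4.3% of all genes did. Asah2 and Enpp7, the pair that digests sphingomyelin in the lumen, were lower, and Fa2h was higher. Ugt8a, Asah1 and Cers5 were higher by smaller amounts, Cers2, Cers4 and Cers6 were slightly lower, and Sgms2 had nearly the same level in both groups. In the limma fit over all genes, 4 of the 10 passed as higher, where 5.52% of all genes did, and 2 passed as lower, where 7.42% of all genes did (Benjamini-Hochberg adjusted p at most 0.05). The groups did not overlap for 4 genes that were higher and 4 that were lower, where this held for 14.3% and 18.3% of all genes. Because the choice of genes used this contrast, nothing is read from these shares. The count of higher genes was 2 without cKO 3 and 2 without control 3 and cKO 2 together, since Asah1 and Cers5 no longer passed. The median change of the 10 genes was −0.14, against −0.01 over all genes.

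**Figure D2:**
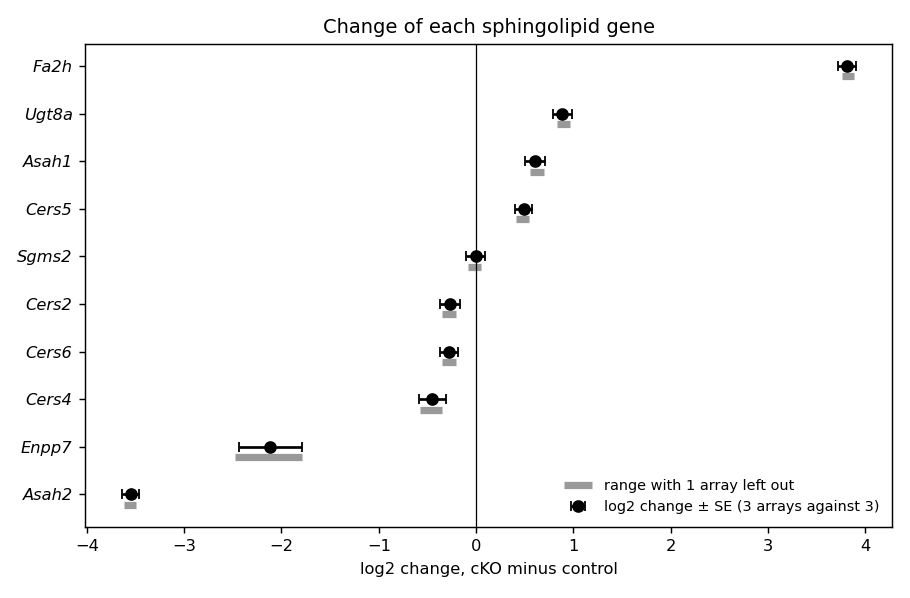
Log2 change (cKO minus control) of the 10 genes, with points and bars for the change ± SE over 3 arrays in each group and grey bars for the range when each array is left out in turn. Fa2h stands at 3.81 and Asah2 at −3.55, Enpp7 has the widest error, and the 4 ceramide synthases lie between −0.45 and 0.49.

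**Figure D3:**
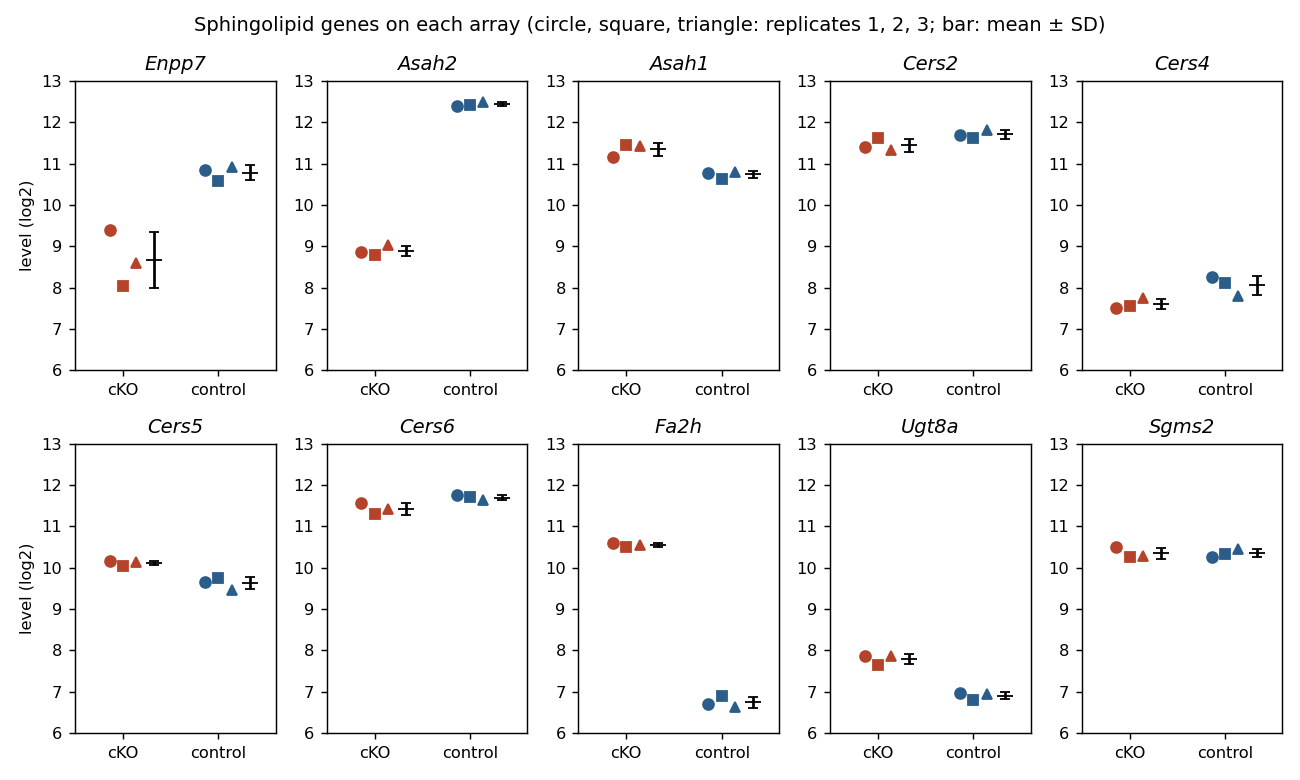
Log2 level of each gene on each array, cKO in red and control in blue, with circle, square and triangle for replicates 1, 2 and 3 and a bar for the mean ± SD. Levels compare arrays within a panel and not genes between panels. The groups are separated in 8 panels, and they overlap for Cers2 and Sgms2.

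Asah2 encodes neutral ceramidase, the brush border enzyme that frees sphingosine from ceramide. Asah2 (probe set 10467041) read 8.85, 8.78 and 9.03 on cKO arrays 1, 2 and 3, against 12.40, 12.42 and 12.49 on control arrays 1, 2 and 3. The highest cKO array lay 3.37 below the lowest control array, while arrays of a group spanned 0.25 (cKO) and 0.09 (control). Its change was −3.55 ± 0.089 (SE, n = 3 in each group; 11.7-fold lower), with a 95% interval of −3.76 to −3.34, and 5 of the 19938 genes had a larger fall. Leaving out each array in turn gave −3.62 to −3.50, and leaving out control 3 and cKO 2 together gave −3.47. In a bulk sample, fewer cells that make a transcript and less of it in each cell cannot be told apart.

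Enpp7 encodes alkaline sphingomyelinase, which acts one step ahead of neutral ceramidase. Enpp7 (probe set 10383047) read 9.39, 8.03 and 8.59 on cKO arrays 1, 2 and 3, against 10.85, 10.58 and 10.92 on control arrays 1, 2 and 3. All cKO arrays were lower than all control arrays, by at least 1.19, but they spread over 1.36, which was more than for any of the other 9 genes. The lowest value was on cKO 2, the array with high hepatocyte and erythroid markers. The change was −2.11 ± 0.33 (SE, n = 3 in each group; 4.33-fold lower), with a 95% interval of −2.90 to −1.33. It was −1.79 without cKO 2 and −1.73 without control 3 and cKO 2 together.

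The DNA just before the starts of these genes is shown because both encode luminal enzymes, both were lower in cKO, and the study concerns factors that bind GATA motifs. Promoters are those of RefSeq on mouse build GRCm38.p6, cut to the 250 bases before the annotated start, with Ugt8a, a gene that was higher, for comparison. Capitals mark the hexamer AGATAA or AGATAG, or else TGATAA or TGATAG, on either strand. On the other strand these read TTATCT or CTATCT, or else TTATCA or CTATCA.
Asah2 (chr19:32103141-32103390, minus strand): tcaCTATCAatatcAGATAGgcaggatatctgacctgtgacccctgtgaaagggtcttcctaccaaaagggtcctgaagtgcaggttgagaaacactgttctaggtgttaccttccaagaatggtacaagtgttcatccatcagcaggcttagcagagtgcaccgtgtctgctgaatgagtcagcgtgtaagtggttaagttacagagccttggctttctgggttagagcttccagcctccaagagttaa
Enpp7 (chr11:118987931-118988180, plus strand): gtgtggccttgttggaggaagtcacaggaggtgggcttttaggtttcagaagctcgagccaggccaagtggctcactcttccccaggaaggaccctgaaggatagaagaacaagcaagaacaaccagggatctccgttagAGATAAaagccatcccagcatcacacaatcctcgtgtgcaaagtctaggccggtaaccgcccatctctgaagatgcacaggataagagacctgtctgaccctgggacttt
Ugt8a (chr3:125938653-125938902, minus strand): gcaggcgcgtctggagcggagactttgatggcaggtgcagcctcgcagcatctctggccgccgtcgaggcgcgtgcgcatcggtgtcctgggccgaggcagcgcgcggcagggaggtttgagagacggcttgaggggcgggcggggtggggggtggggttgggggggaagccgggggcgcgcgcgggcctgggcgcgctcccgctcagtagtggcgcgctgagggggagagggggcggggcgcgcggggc
The Asah2 window held CTATCA beginning 247 bases before the start and AGATAG beginning 236 bases before it. The Enpp7 window held AGATAA beginning 110 bases before the start. The Ugt8a window held none of the 4 hexamers on either strand. That window is rich in g and c, while the hexamers are mostly a and t, so it is a weak comparison. Of the 10 genes, 8 had an entry (not Fa2h or Asah1), with 14 annotated starts, and 4 of those starts had a match, 1 each for Asah2, Enpp7, Cers2 and Sgms2. Cers4 and Cers6, which were slightly lower, and Cers5, which was higher, had none. Among all 32851 annotated starts 26.5% had a match, and 6.4% had 2 or more. Counted by gene, 29.7% of all genes with an entry had a match at any start. These matches describe letters, not bound sites.

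Asah1 encodes acid ceramidase, the lysosomal counterpart of Asah2, and it was higher where Asah2 was lower. Asah1 (probe set 10578361) read 11.16, 11.44 and 11.43 on cKO arrays 1, 2 and 3, against 10.77, 10.64 and 10.81 on control arrays 1, 2 and 3. The groups were 0.35 apart at their nearest arrays. The change was 0.60 ± 0.10 (SE, n = 3 in each group; 1.52-fold higher), with a 95% interval of 0.35 to 0.85. It ran from 0.55 to 0.69 with 1 array left out, and it no longer passed the threshold of the whole fit without cKO 3, without control 2, or without control 3 and cKO 2 together.

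The 4 ceramide synthases differed little, and not in one direction. Cers5, which prefers palmitoyl-CoA, was the one that was higher. It (probe set 10432527) read 10.15, 10.05 and 10.13 on cKO arrays 1, 2 and 3, against 9.66, 9.74 and 9.47 on control arrays 1, 2 and 3, with no overlap. The change was 0.49 ± 0.092 (1.40-fold higher, n = 3 in each group), and it no longer passed without cKO 1, cKO 3 or control 1. Cers6, which shares the preference of Cers5 for palmitoyl-CoA, was slightly lower. It (probe set 10472501) read 11.56, 11.29 and 11.41 on cKO arrays, against 11.75, 11.70 and 11.64 on control arrays, a change of −0.28 ± 0.092 that did not pass. The nearest arrays of the groups were 0.08 apart. Cers4, which uses long and very long acyl chains, was likewise a little lower. It (probe set 10569972) read 7.50, 7.56 and 7.75 on cKO arrays, against 8.25, 8.12 and 7.79 on control arrays, a change of −0.45 ± 0.14 that passed only when control 3 was left out (−0.58). Cers2, the synthase of very long chain ceramides, overlapped between the groups. It (probe set 10494227) read 11.40, 11.61 and 11.32 on cKO arrays, against 11.70, 11.61 and 11.82 on control arrays, a change of −0.27 ± 0.10 with a 95% interval of −0.52 to −0.02, which takes no account of the number of genes tested and did not pass after adjustment. All 4 changes were under 2-fold.

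Fa2h, which hydroxylates the fatty acid that ceramide synthases use, had the largest difference of the 10 genes. Fa2h (probe set 10581824) read 10.59, 10.50 and 10.56 on cKO arrays 1, 2 and 3, against 6.70, 6.89 and 6.63 on control arrays 1, 2 and 3. The cKO arrays agreed within 0.09, and the lowest of them lay 3.61 above the highest control array. The change was 3.81 ± 0.090 (SE, n = 3 in each group; 14.03-fold higher), with a 95% interval of 3.59 to 4.03 and a range of 3.75 to 3.88 when each array was left out in turn. Without control 3 and cKO 2 together the change was 3.78. Among all genes 7 had a larger rise.

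Of the head group transferases, Ugt8a was higher and Sgms2 was at nearly the same level. Ugt8a makes galactosylceramide, whose fatty acid is often 2-hydroxylated, as in myelin. Ugt8a (probe set 10501963) read 7.86, 7.64 and 7.87 on cKO arrays 1, 2 and 3, against 6.96, 6.80 and 6.95 on control arrays 1, 2 and 3. The groups lay 0.68 apart, and the change was 0.89 ± 0.096 (1.85-fold higher, n = 3 in each group), or 0.98 without control 3 and cKO 2. The mean level of Ugt8a was in the lower tertile of all genes, so filters on dim genes removed it from the test. Without detection calls, its signal could not be told from background. Sgms2, which makes sphingomyelin at the plasma membrane, overlapped fully. It (probe set 10502224) read 10.50, 10.25 and 10.29 on cKO arrays, against 10.26, 10.34 and 10.45 on control arrays. Its change was −0.0033 ± 0.098, with a 95% interval of −0.24 to 0.23, so 3 arrays a group leave room for a difference of about that size in either direction.

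Fa2h and Ugt8a are also known from cells other than enterocytes, and the marker levels of those cells on these arrays were as follows. Among the 9 goblet cell markers with a level, 8 rose in cKO and 0 fell under limma, where 5.52% and 7.42% of all genes did. Their median change was 1.11, against −0.01 over all genes. Summed on the linear scale, the goblet markers stood at 15.3 to 15.5 (log2) on the arrays labelled cKO and at 14.6 to 14.8 on the control arrays. Spdef, a goblet cell transcription factor, rose by 1.36 ± 0.14 (limma adjusted p = 0.00208). No goblet marker was listed at 0 on any array, and the part of these cells in the Fa2h and Ugt8a differences was not tested. Markers of enteric glia and Schwann cells averaged 8.33 to 8.45 on the arrays labelled cKO and 8.37 to 8.49 on the control arrays. Of 8 measured, 0 rose and 1 fell under limma (12.5%, where 7.42% of all genes fell). This was Erbb3 (−0.37), which read 11.06 to 11.18 on cKO arrays and 11.44 to 11.56 on control arrays. Which cells gave the Erbb3 signal was not tested. The glial transcription factor Sox10 read 7.34 to 7.55 on cKO arrays and 7.43 to 7.55 on control arrays.

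The profiles most like those of the strongest pair were found by centring each gene on its own mean and taking the root mean square difference over the 6 arrays, where clone-like and predicted names were left out. Nearest to Fa2h was Slc10a2, the ileal bile acid transporter gene, with a difference of 0.16 (log2), against a median of 1.92 over all genes. Tmigd1, Kcne1l, Oit1 and Edn1, which encodes endothelin 1, followed at 0.26 to 0.33. Nearest to Asah2 was Gda, the guanine deaminase gene, with a difference of 0.064, against a median of 1.78 over all genes. It read 7.74, 7.75 and 7.93 on cKO arrays, against 11.46 on each control array. Slc37a2, a sugar phosphate exchanger gene, Slc9a3, a sodium/proton exchanger gene, Tdrp and the sterol exporter gene Abcg8 followed at 0.15 to 0.24. With 2 groups of 3 arrays, this likeness reflects mainly a similar size of the difference between the groups.

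**Figure D4:**
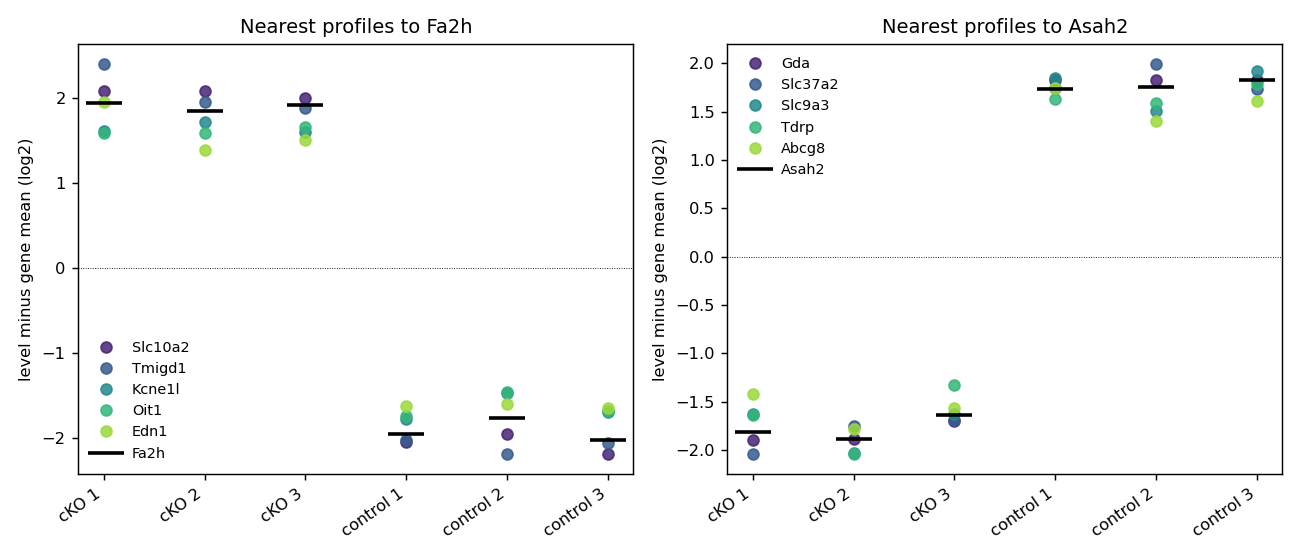
Level minus the gene's own mean over 6 arrays (log2) for Fa2h and Asah2 (black bars) and for the 5 genes with the nearest profile to each (coloured points). The points lie close to the bars on all 6 arrays, with Slc10a2 nearest to Fa2h and Gda nearest to Asah2.

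Around these 10 genes, 79 other genes of sphingolipid metabolism were examined, in 8 lists written from general knowledge of the pathway. The lists held 82 genes, and 3 were not analysed here, among them Cers1, whose probe set also covers Gdf1. Of the 79, 15 fell in cKO and 4 rose, which is 19% and 5.06%, where 7.42% and 5.52% of all genes tested did. The median change was −0.08, against −0.01 over all genes. The lower count was 11 without cKO 3 or without control 2 and 18 without cKO 2, and the higher count was 2 without cKO 3 or control 2. All p-values below are limma's, Benjamini-Hochberg adjusted over all genes.

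**Figure D5:**
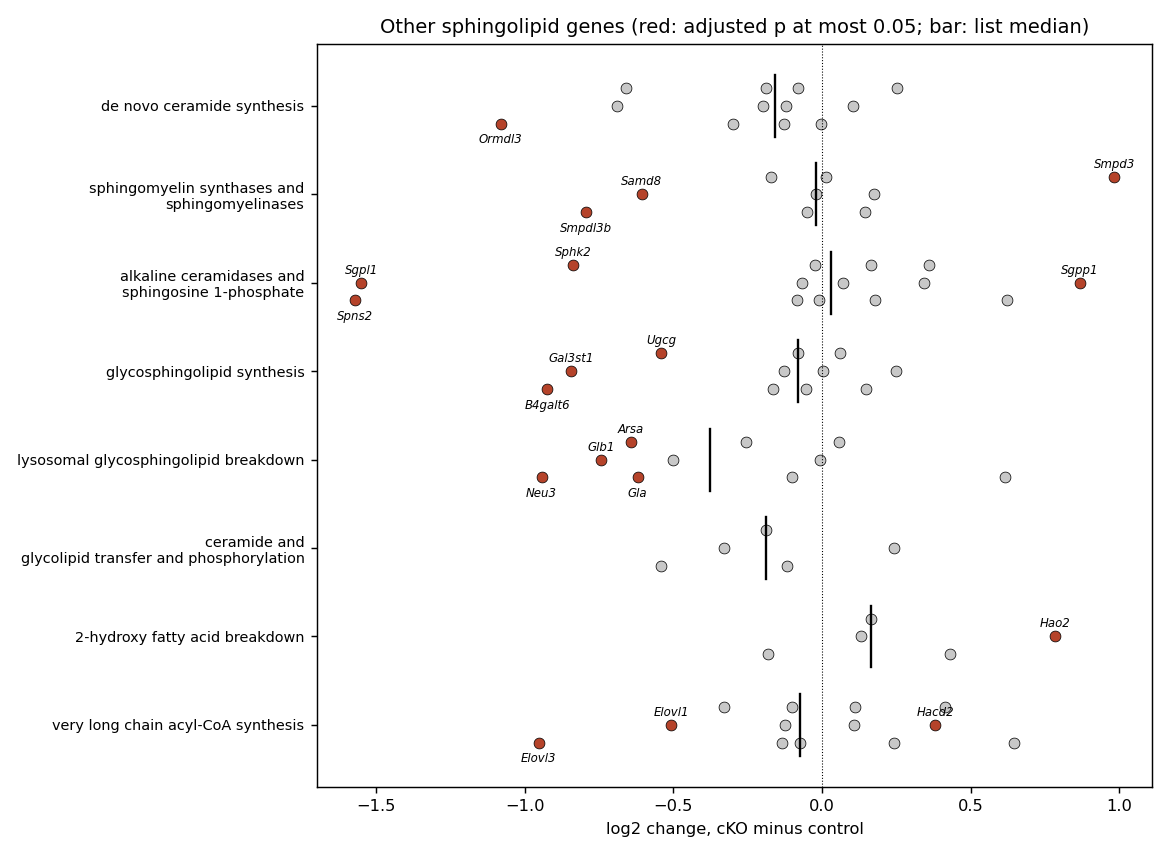
Log2 change (cKO minus control) of 79 other sphingolipid genes in 8 lists, with red points for those at an adjusted p of at most 0.05 and a black bar for the median of each list. Sgpl1 and Spns2 lie furthest to the left at −1.55 and −1.57, and Smpd3 furthest to the right at 0.98.

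The metabolism of sphingosine 1-phosphate, the signalling lipid made from the sphingosine that ceramidases release, held the largest changes of the 79. Of 14 genes in the list of alkaline ceramidases and sphingosine 1-phosphate, 3 fell and 1 rose (median change 0.03). These shares were 21.4% and 7.14%, against 7.42% and 5.52% of all genes. Spns2, which exports sphingosine 1-phosphate from cells, read 8.91, 8.94 and 8.77 on cKO arrays, against 10.47, 10.30 and 10.56 on control arrays. It fell by 1.57 ± 0.096 (2.97-fold, adjusted p = 0.000351). Sgpl1, the lyase that destroys sphingosine 1-phosphate, read 10.23, 10.12 and 10.17 on cKO arrays, against 11.67, 11.62 and 11.88 on control arrays. It fell by 1.55 ± 0.092 (2.93-fold, adjusted p = 0.00032). Sphk2, one of the kinases that make the lipid, fell by 0.84 ± 0.081 (adjusted p = 0.00154), and Sgpp1, a phosphatase that returns it to sphingosine, rose by 0.87 ± 0.079 (adjusted p = 0.00129). These 4 genes passed with each array left out in turn. Among the alkaline ceramidases, Acer3 was at the threshold (0.62 ± 0.16, adjusted p = 0.05005) and passed without cKO 1 or cKO 2, while Acer1 and Acer2 changed by −0.07 and 0.16 and did not pass. The 5 receptor genes S1pr1 to S1pr5 did not pass either, with changes of −0.02 to 0.36.

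In de novo synthesis, 1 of 12 genes fell (8.33%, near the 7.42% of all genes) and 0 rose (median −0.16). The one that fell was Ormdl3, whose product restrains serine palmitoyltransferase, the entry enzyme of the pathway. It read 8.88, 9.02 and 8.81 on cKO arrays, against 9.91, 9.98 and 10.06 on control arrays, a difference of −1.08 ± 0.087 (SE), or 2.11-fold lower, with an adjusted p = 0.000844. The subunits of the entry enzyme itself, Sptlc1, Sptlc2 and Sptlc3, changed by −0.08, −0.12 and 0.10, and Ormdl1 and Ormdl2 by −0.13 and −0.30, and these 5 did not pass.

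Of 9 sphingomyelin synthases and sphingomyelinases other than Enpp7 and Sgms2, 2 fell and 1 rose (median −0.02). These shares were 22.2% and 11.1%, against 7.42% and 5.52% of all genes. Smpdl3b, a membrane-bound relative of the sphingomyelinases, fell by 0.79 ± 0.089 (adjusted p = 0.00273). Samd8, which makes ceramide phosphoethanolamine and not sphingomyelin, fell by 0.61 ± 0.11 (adjusted p = 0.0157), and no longer passed without cKO 3 or control 2. Smpd3, neutral sphingomyelinase 2, rose by 0.98 ± 0.23 (adjusted p = 0.0372), and it no longer passed when cKO 1, cKO 3, control 1 or control 2 was left out (adjusted p up to 0.114). Smpd1, the lysosomal acid sphingomyelinase, changed by 0.14 ± 0.082 and Sgms1, the Golgi sphingomyelin synthase, by 0.17 ± 0.073, and neither passed.

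Of 11 genes that build glycosphingolipids, 3 fell (27.3%, where 7.42% of all genes did) and 0 rose (median −0.08). Ugcg, glucosylceramide synthase, fell by 0.54 ± 0.085 (adjusted p = 0.00965), and did not pass without control 3 and cKO 2 together (adjusted p = 0.0503). B4galt6, a lactosylceramide synthase, fell by 0.92 ± 0.11 (adjusted p = 0.00304). Gal3st1 sulfates the galactosylceramide that Ugt8a makes. It read 8.83, 8.61 and 8.68 on cKO arrays, against 9.37, 9.60 and 9.68 on control arrays, a fall of 0.84 ± 0.11 (adjusted p = 0.00454), where Ugt8a was higher.

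Of 10 measured genes of glycosphingolipid breakdown (12 were listed), 4 fell (40%, where 7.42% of all genes did) and 0 rose (median −0.38). These were Glb1, β-galactosidase (−0.74 ± 0.095, adjusted p = 0.00428), Neu3, a sialidase of the plasma membrane and not of the lysosome (−0.94 ± 0.17, adjusted p = 0.0157), Gla, α-galactosidase A (−0.62 ± 0.11, adjusted p = 0.0166), and Arsa, which removes sulfate from sulfatide (−0.64 ± 0.13, adjusted p = 0.0229). The count was 1 without cKO 3, control 2 or control 3, with Glb1 passing each time, and 2 without control 3 and cKO 2 together. Psap, the precursor of the saposin activators, changed by −0.0067 ± 0.069 and did not pass. Lysosomal Asah1 thus differed in the opposite direction from Glb1, Gla and Arsa on the same arrays.

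Of 5 genes of 2-hydroxy fatty acid breakdown, 1 rose (20%, where 5.52% of all genes did) and 0 fell (median 0.16). It was Hao2, a peroxisomal oxidase of long-chain 2-hydroxy acids, which read 11.11, 11.02 and 11.03 on cKO arrays, against 10.06, 10.27 and 10.48 on control arrays, a rise of 0.78 ± 0.12 (adjusted p = 0.00776). Hacl1, the lyase of 2-hydroxyacyl-CoA, changed by 0.16 ± 0.35 and did not pass. It read 9.90, 10.86 and 9.46 on cKO arrays 1, 2 and 3, against 9.74, 9.77 and 10.22 on control arrays 1, 2 and 3. Its change was −0.23 without cKO 2. Of 13 genes that lengthen acyl chains, 2 fell and 1 rose (median −0.07). These shares were 15.4% and 7.69%, against 7.42% and 5.52% of all genes. Elovl1 and Elovl3, elongases of saturated and monounsaturated very long chains, fell by 0.51 ± 0.076 (adjusted p = 0.00781) and 0.95 ± 0.15 (adjusted p = 0.01001), and Hacd2, a dehydratase of the elongation cycle, rose by 0.38 ± 0.071 (adjusted p = 0.0176), a call lost without cKO 3, control 2 or control 3. Without control 3 and cKO 2 together, neither Elovl1 (adjusted p = 0.0648) nor Hacd2 (adjusted p = 0.0925) passed. Of 5 genes of ceramide and glycolipid transfer and phosphorylation, 0 passed under limma, with a median of −0.19. An unadjusted p under 0.05 was found for 3 of them, and for 5294 of all 19938 genes. Cert1, which carries ceramide to the Golgi, changed by −0.19 ± 0.071 and did not pass.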

How the data were processed

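Per the series text the authors ran dChip, and they deposited log2 levels of 35512 probe sets on 6 arrays. That the scale is log2 was read from the values (0 to 14.25). Nothing used here gives the dChip version, background correction or normalization, and centring is unknown (array medians 7.73 to 7.84). No scanner files or detection calls were used, so a dim probe set could not be told from background, and the number of arrays limits the precision. Probe sets were named from the platform annotation (21789 with 1 gene, 1621 with several, 12102 with none), with gene IDs looked up in RefSeq GRCm38.p6 (21698 matched). The probe set with the highest mean was kept for each of 19938 genes. Groups came from the source names. Levels were compared with limma 3.58.1 in R 4.3.3 (lmFit, eBayes, two-sided, no covariate, no filter), with Benjamini-Hochberg adjustment across the 19938 genes and a threshold of 0.05. The fit was tested on simulated data with 50 changed genes at each size. It recovered 28% of changes of 0.5 (log2), 62% of changes of 1, 88% of 2 and 98% of 4. In the simulation small changes were thus often missed. It gave 139 calls, where the data gave 1101 higher and 1479 lower. The adjusted threshold is stricter when fewer genes pass, so the shares recovered do not carry over to the data. The simulated noise was normal and independent between arrays, without the marker differences seen on cKO 2 and control 3. The members and lists were chosen with earlier results of these data known. Named were the 10 members, Gata4 and Gata6, up to 4 genes past the threshold with the smallest adjusted p in each of 8 wider lists, and the 5 profiles nearest to Fa2h and to Asah2. Other genes were named after their values were seen. Alternatives were quantile normalization, median centring, log2(value + 32), a pair of filters on dim genes, array weights, the mean of a gene's probe sets, trended and robust eBayes, the replicate number as a block, each array left out, and control 3 and cKO 2 left out together. No scan date or batch was available.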

Additional observations from a re-analysis of the deposited data

How the results depend on the processing

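Among the 10 genes, the lower count was 2 to 3 and the higher count 2 to 4 with each array left out in turn. Of the other 79 sphingolipid genes 2 to 5 were then higher and 11 to 18 lower, and over all genes 629 to 959 were higher and 844 to 1322 lower (1101 and 1479 with all arrays). Without control 3 and cKO 2 together, 708 genes were higher and 878 lower, and 2 of the 10 were higher. With the replicate number as a block, 622 genes were higher and 827 lower, with 2 of the 10 and 2 of the 79 among those higher. The titles number the arrays 1 to 3 in each group, but arrays with the same number did not deviate together (r of −0.42 to −0.02 across genes, against −0.30 to 0.36 for unlike numbers), so the number was not taken as a pairing. The cause of these lost calls was not tested, beside the fewer arrays or degrees of freedom in each such fit. No named gene changed direction in any alternative while past the threshold in it or with all arrays. Under quantile normalization, median centring, log2(value + 32), the trended eBayes, array weights and the mean of probe sets, the calls of all 41 named genes stayed on the same side of the threshold. A filter on dim genes removed some of them from the test and changed no other call. Without detection calls, low levels such as Fa2h and Ugt8a on control arrays may understate a fold.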

Other observations

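Several sphingolipid genes outside the named set, picked after their values were seen, stood apart on cKO 2, the array with the highest hepatocyte and erythroid markers. Elovl2, an elongase of polyunsaturated fatty acids, read 6.59, 10.51 and 6.61 on cKO arrays 1, 2 and 3, against 7.74, 7.51 and 8.68 on control arrays 1, 2 and 3. Gm2a, the GM2 activator, read 8.89, 10.74 and 8.75 on cKO arrays, against 8.92, 8.52 and 9.09 on control arrays. Of the 79 genes, 7 differed by at least 1 (log2) between cKO 2 and the mean of the other cKO arrays, and 0 of the 10 main genes did. Enpp7 lay just under that cutoff, at 8.03 on cKO 2 against 9.39 and 8.59 on cKO 1 and cKO 3. The share of all genes past this cutoff was not counted, so nothing is read from these counts.

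Degs1, the desaturase of the last step of de novo ceramide synthesis, read 9.05, 10.16 and 9.17 on cKO arrays 1, 2 and 3, against 10.03, 10.06 and 10.36 on control arrays. Its change was −0.69 ± 0.30 (limma adjusted p = 0.201) with all arrays and −1.04 (adjusted p = 0.00503) without cKO 2. Cerk, ceramide kinase, changed by −0.54 ± 0.28 (limma adjusted p = 0.294) with all arrays and by −0.84 (adjusted p = 0.0358) without cKO 2. The part of other cell types in these values was not tested.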
